A study of Mus musculus with 17 samples.

Results

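The genes described here encode the respiratory chain and the ATP synthase of mitochondria, in retinal pigment epithelium (RPE) cells of mice. A gene was included when its symbol began with mt-Nd, mt-Co, mt-Cy or mt-Atp (encoded by mitochondrial DNA), when it began with Nduf, Uqcr, Cox4 to Cox8 or Atp5, or when it was Sdha, Sdhb, Sdhc or Sdhd (encoded in the nucleus). This rule found 108 of the 22253 genes counted, of which 13 were mitochondrial and 95 nuclear. The nuclear genes included 8 assembly factors, which are not subunits, and the pseudogene Cox5b-ps. Ndufb1-ps, counted as a subunit, is annotated as a non-coding RNA.

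Complexes I, III and IV pump protons across the inner mitochondrial membrane while passing electrons to oxygen, complex II feeds in electrons from succinate, and the ATP synthase (complex V) uses the proton gradient to make ATP. Complexes I, III, IV and V are built from subunits of both origins, whereas complex II is wholly nuclear. The RPE is rich in mitochondria, takes up fatty acids and lactate from its surroundings, and passes much of the glucose of the blood on to the photoreceptors.

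RNA was sequenced from 17 hand-picked pools of RPE cells, each labelled as 10 to 15 cells, from 7 numbered mice aged 2 months. All mice were heterozygous Serpine3GFP/+ animals, in which a GFP reporter sits behind the start codon of one Serpine3 allele, and the GFP-negative groups carried that allele too. The 3 groups were 6 pools of GFP-positive cells (GFP+-RPE), 5 pools of GFP-negative cells from the peripheral part of the eyecup (peripheral GFP–-RPE) and 6 pools of GFP-negative cells from its centre (central GFP–-RPE), all picked with a micromanipulator after digestion with hyaluronidase and trypsin. Per the study's methods, the GFP+ cells came from dissociated peripheral RPE. Mice 1, 2, 4, 5 and 7 gave all 3 groups, mouse 3 gave GFP+-RPE only and mouse 6 gave central GFP–-RPE only; the label of mouse 1 carries 2 animal numbers.

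Libraries held 9896118 to 22467079 counts. RPE identity was checked with its visual cycle genes: Rpe65, the isomerase of that cycle, stood at 2993 to 11536 CPM, whereas Best1, a chloride channel of the RPE, did not exceed 0.20 CPM in any library. CPM stands for the count of a gene as a rate of all counts in its library, scaled by the trimmed mean of M-values (TMM), and all levels are given in it. Genes with at least 10 counts numbered 9089 to 10231 in GFP+-RPE, 7966 to 10543 in peripheral GFP–-RPE and 5392 to 10450 in central GFP–-RPE, where the library of mouse 5 had the fewest and the lowest TMM factor, 0.547. Mice 1 to 3 and mice 4 to 7 carried animal numbers from separate runs of numbers, and what the runs stand for is not given in the labels.

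The 13 mitochondrial genes comprised 7 subunits of complex I, 1 of complex III, 3 of complex IV and 2 of complex V. They lie close together on a small circular genome, and some share bases, so that reads in the shared stretch can be assigned to either gene. The following sequences show where this applies (GENCODE M21, GRCm38, plus strand, shared bases in capitals); the first is chrM:7917-7979 and the second chrM:10157-10183.
mt-Atp8 and mt-Atp6: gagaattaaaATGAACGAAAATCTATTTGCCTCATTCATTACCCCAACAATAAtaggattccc
mt-Nd4l and mt-Nd4: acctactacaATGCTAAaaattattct
The overlap was 43 bases for mt-Atp8 with mt-Atp6 and 7 bases for mt-Nd4l with mt-Nd4. The single base at chrM:8607 is shared by mt-Atp6 and mt-Co3. A further 14 bases are shared by mt-Nd5 and mt-Nd6, which lie on opposite strands, and the strand setting of the counting is not given in the sources used here.

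Some mitochondrial genes end inside a stop codon, which is completed only when a poly(A) tail is added to the transcript. The 3′ ends of 3 such genes are shown because the SMART-Seq mRNA LP kit named in the labels primes on that tail. The capital marks the single base of the incomplete stop codon, at chrM:9370-9390, chrM:11524-11544 and chrM:15268-15288 in turn.
mt-Co3: ccatttattgatgaggatctT
mt-Nd4: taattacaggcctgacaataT
mt-Cytb: aaatactaaaattatatccaT

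The first question was whether the levels of genes of either origin differed between the GFP+ cells and their GFP– neighbours. Summed counts of mitochondrially encoded genes were lowest in GFP+-RPE, intermediate in peripheral GFP–-RPE and highest in central GFP–-RPE. The sum of the nuclear members stayed within a narrow range in all 3 groups, although single nuclear members varied more. Summed over the 13 genes, the mitochondrial level in GFP+-RPE was 5424 CPM at the lowest, 71754 at the median and 158071 at the highest (n = 6). In peripheral GFP–-RPE it was 101145, 162358, 146670, 324237 and 252375 CPM in mice 1, 2, 4, 5 and 7. In central GFP–-RPE it was 120086 CPM at the lowest, 352324 at the median and 865591 at the highest (n = 6). The lowest value was GFP+-RPE of mouse 2 and the highest was central GFP–-RPE of mouse 5, 160-fold apart, and the only overlap of the GFP+ and central groups was the GFP+ pool of mouse 5 with the central pool of mouse 2. In pools of cells, fewer cells of a type and less RNA per cell cannot be told apart. Summed counts of receptors that other tissues use moved with the mitochondrial ones. The 1503 symbols of odorant, vomeronasal and trace amine receptors summed to 732 to 4771 CPM in GFP+-RPE. The sums were 3016 to 10254 CPM in peripheral and 2924 to 41088 CPM in central GFP–-RPE. A large part came from the odorant receptor Olfr157, at 388 to 2831, 1707 to 5891 and 1634 to 24417 CPM in these groups in turn. Only 31 to 273 of the symbols reached 10 counts in a library. Whether part of the mitochondrial counts came from priming on DNA rather than on RNA was not tested, and the levels given here are levels of counts.

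Summed over the 95 nuclear genes, the level in GFP+-RPE ran from 23423 to 33748 CPM, with a median of 25839.8. Peripheral GFP–-RPE held 25758, 28796, 26462, 25981 and 23885 CPM in mice 1, 2, 4, 5 and 7. Central GFP–-RPE ran from 23202 to 38488 CPM, with a median of 28316. The whole spread of the nuclear sum was 1.66-fold over the 17 libraries, and the 3 groups overlapped.

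**Figure D1:**
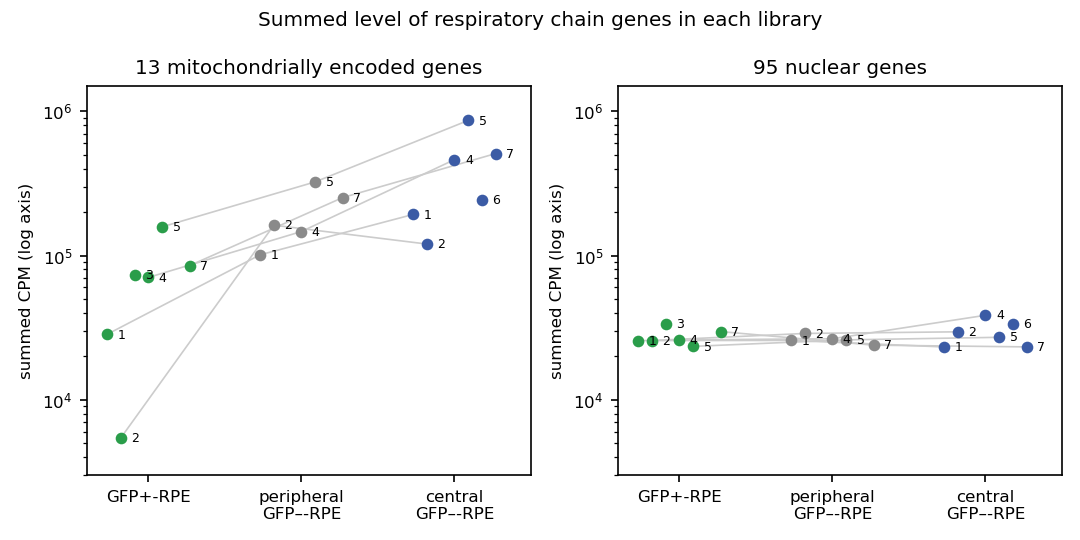
Summed CPM (log axis) of the 13 mitochondrial and the 95 nuclear genes in each of the 17 libraries. Points are pools numbered by mouse, and grey lines join pools of a mouse. The mitochondrial sum is lowest in GFP+-RPE and highest in central GFP–-RPE, with 1 GFP+ pool reaching the central range, whereas the nuclear sums of the 3 groups overlap; without TMM factors the nuclear difference of GFP+ from central cells changes sign, from −0.08 to 0.42.

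On the log2 scale the mitochondrial sum differed by −2.79 between GFP+-RPE and central GFP–-RPE (pooled SD 1.42), by −1.95 between GFP+-RPE and peripheral GFP–-RPE (1.36) and by −0.83 between peripheral and central GFP–-RPE (0.90). The same differences of the nuclear sum were −0.08 (0.24), 0.06 (0.15) and −0.13 (0.23), all smaller than the spread between pools, and the first and the third changed sign, to 0.42 and 0.18, when CPM was taken without TMM factors. These sums describe the gene set and carry no test.

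Because 5 mice gave all 3 groups, the sums could also be compared within an animal. The mitochondrial sum of GFP+-RPE was 6.79-, 22.1-, 6.57-, 5.48- and 5.99-fold below that of central GFP–-RPE in mice 1, 2, 4, 5 and 7. Against peripheral GFP–-RPE of the same mouse it was 3.57-, 29.9-, 2.08-, 2.05- and 2.96-fold lower. Mouse 2 stood apart in both. Each of the 13 genes was lower in GFP+-RPE in 5 of 5 mice in both comparisons, but they varied together and are not independent. Peripheral GFP–-RPE was below central GFP–-RPE in 4 of 5 mice, by 1.91-, 3.15-, 2.67- and 2.02-fold in mice 1, 4, 5 and 7, and above it in mouse 2, where the central level was 0.740 times the peripheral one.

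The balance of the 2 origins was read from the ratio of the mitochondrial to the nuclear sum, which does not depend on the scaling of a library. This ratio was 1.10, 0.211, 2.16, 2.71, 6.75 and 2.87 in GFP+-RPE of mice 1, 2, 3, 4, 5 and 7. It was 3.93, 5.64, 5.54, 12.5 and 10.6 in peripheral GFP–-RPE of mice 1, 2, 4, 5 and 7. It was 8.31, 4.06, 12.0, 32.0, 7.27 and 22.0 in central GFP–-RPE of mice 1, 2, 4, 5, 6 and 7. Within mice 1 to 3 the highest GFP+ ratio lay below every peripheral and central one. Within mice 4 to 7 the GFP+ ratios of 2.71 to 6.75 lay below the central ones of 7.27 to 32.0 and overlapped the peripheral ones of 5.54 to 12.5. The ratio differed by −2.71 on the log2 scale between GFP+ and central cells (pooled SD 1.43), by −2.01 between GFP+ and peripheral cells (1.35) and by −0.70 between peripheral and central cells (0.94).

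As a share of all counts, the 13 mitochondrial genes made up 0.710% to 17.2% of GFP+ libraries, with a median of 8.57%. The shares in peripheral GFP–-RPE were 12.5%, 17.7%, 15.5%, 30.4% and 22.2%. In central GFP–-RPE they were 13.7% to 47.3%, with a median of 27.3%.

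Gene by gene, the quasi-likelihood test of edgeR compared GFP+-RPE with central GFP–-RPE over 9286 genes, a gene being called at an adjusted p under 0.01 and a log2 change over 1 in size. All 13 mitochondrial members and 90 nuclear members had counts enough to be tested. All 13 mitochondrial genes had lower estimates in GFP+-RPE, as did 49.9% of all genes, from −2.92 for mt-Atp8 (SE 0.67) to −2.30 for mt-Co1 (SE 0.54), which is 7.56- to 4.93-fold, with a median of −2.66. None was called: the edgeR adjusted p ran from 0.0729 to 0.0872, while 0.0431% of all genes tested were called. At an unadjusted p under 0.05 all 13 were lower, against 3.66% of all genes. The 13 genes varied together over the pools, so in all 3 comparisons they are not independent observations. No member of either origin had ranges that did not overlap, against 0.862% of all genes in the higher and 0.269% in the lower direction. With the mouse as a block, which the shared animals allow, all 13 genes were called, and lower, with edgeR adjusted p from 0.000295 to 0.00400, against 0.592% of all genes called lower. That fit moved the median of all genes by 0.57, and relative to it the 13 changes ran from −3.85 to −3.25. DESeq2, under which the median of all genes was −0.43, called 1 of the 13, mt-Nd3, with an adjusted p of 0.00708, against 0.964% of all genes called lower. It gave the 13 an adjusted p of at most 0.0307.

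**Figure D2:**
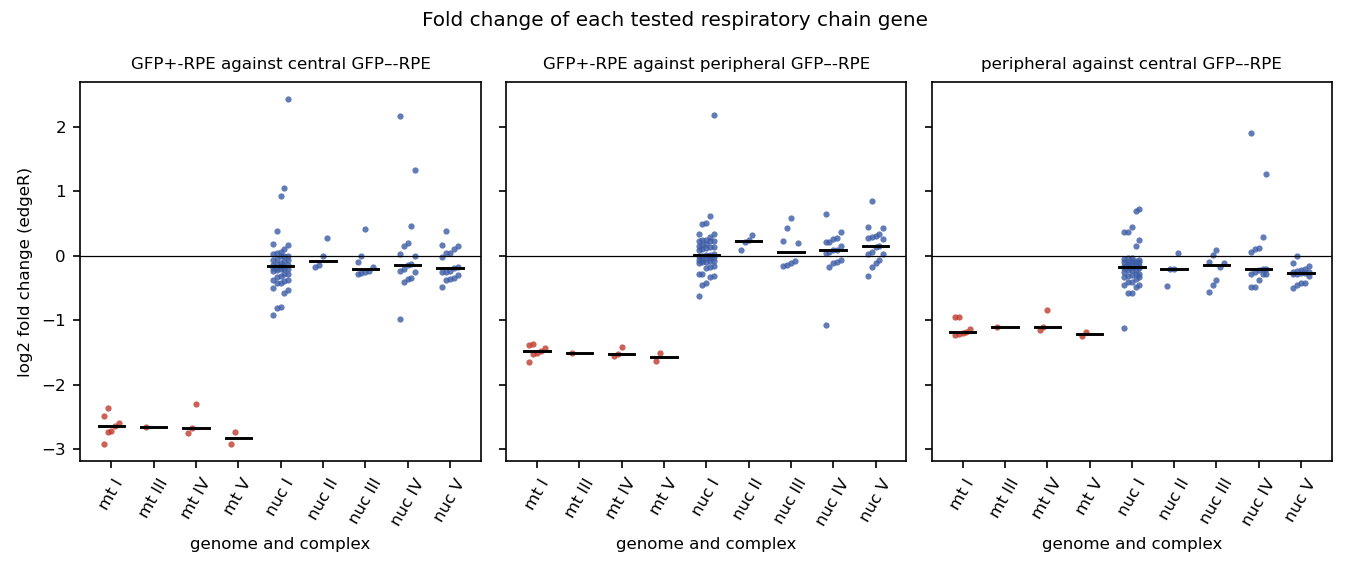
log2 changes (y axis) of every tested member in the 3 comparisons, by origin (mt or nuc) and complex on the x axis, with points as genes and bars as medians. The 13 mitochondrial genes lie between −2.92 and −2.30 for GFP+ against central cells, between −1.65 and −1.37 for GFP+ against peripheral cells and between −1.24 and −0.84 for peripheral against central cells, and nearly all nuclear members lie within 1 of 0.

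Complex I, the entry point for electrons from NADH, was represented by mt-Nd1 to mt-Nd6 and mt-Nd4l. mt-Nd5, a membrane subunit in the proton-pumping arm, stood at 1789, 193, 2552, 2500, 5948 and 3431 CPM in GFP+-RPE of mice 1, 2, 3, 4, 5 and 7. The peripheral pools stood at 6231, 6338, 6476, 11428 and 8137 CPM. In central GFP–-RPE it ran from 5889 to 30237 CPM with a median of 12144. Every peripheral pool was thus above every GFP+ pool, and it was the only mitochondrial gene with no overlap between those groups. mt-Nd6, the only one encoded on the opposite strand, ran from 186 to 3152 CPM in GFP+-RPE, with a median of 1594.5. Its peripheral median was 3962 CPM and its central median 6386 CPM, the same order as for mt-Nd5.

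The single mitochondrial gene of complex III is mt-Cytb, cytochrome b, at which ubiquinol is oxidised. Its level in GFP+-RPE was 689 CPM at the lowest, 10892 at the median and 24863 at the highest. The peripheral pools held 14304, 23402, 22196, 49208 and 39220 CPM, and central GFP–-RPE ran from 17889 to 130520 with a median of 54001. The central pool of mouse 2 lay below the GFP+ pool of mouse 5, and the remaining pools of those groups did not overlap.

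Complex IV, cytochrome c oxidase, takes its catalytic core from mt-Co1, mt-Co2 and mt-Co3. mt-Co3 stood at 986 CPM at the lowest, 13975 at the median and 30718 at the highest in GFP+-RPE. Peripheral pools stood at 19192, 31696, 29177, 66831 and 49818 CPM, and central pools at 22149 to 175629 with a median of 73926. mt-Co1, which carries the haem groups of the oxidase, had the smallest change of the 13 against central GFP–-RPE. Its share of the mitochondrial counts was 13.8% ± 3.09 (SD, n = 6 GFP+ pools), 11.9% ± 1.57 (5 peripheral pools) and 10.2% ± 1.79 (6 central pools), with overlapping groups.

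Complex V takes mt-Atp6, which forms part of the proton channel, and the small mt-Atp8 from the mitochondrial genome. mt-Atp6 ran from 849.5 to 26849 CPM in GFP+-RPE with a median of 11679.5. It ran from 14915 to 57448 CPM in peripheral GFP–-RPE and from 19157 to 160407 CPM in central GFP–-RPE. mt-Atp8 shares 43 bases with it, as printed above, and its own estimate is uncertain to that extent.

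The order among mitochondrial genes was nearly the same in all pools. Per kilobase of transcript, mt-Co3 was the highest of the 13 in 15 libraries and mt-Atp6 in 2, mt-Co2 was always the 3rd and mt-Nd4l always the 13th. By complex, the summed mitochondrial levels of GFP+-RPE differed from central GFP–-RPE by −2.80 in complex I, −2.84 in complex III, −2.73 in complex IV and −2.87 in complex V on the log2 scale. Against peripheral GFP–-RPE the same differences were −1.94, −2.01, −1.93 and −1.98, and between peripheral and central GFP–-RPE −0.86, −0.83, −0.80 and −0.89. The spread among complexes was much smaller than the pooled SDs between pools of 0.82 to 1.50.

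**Figure D3:**
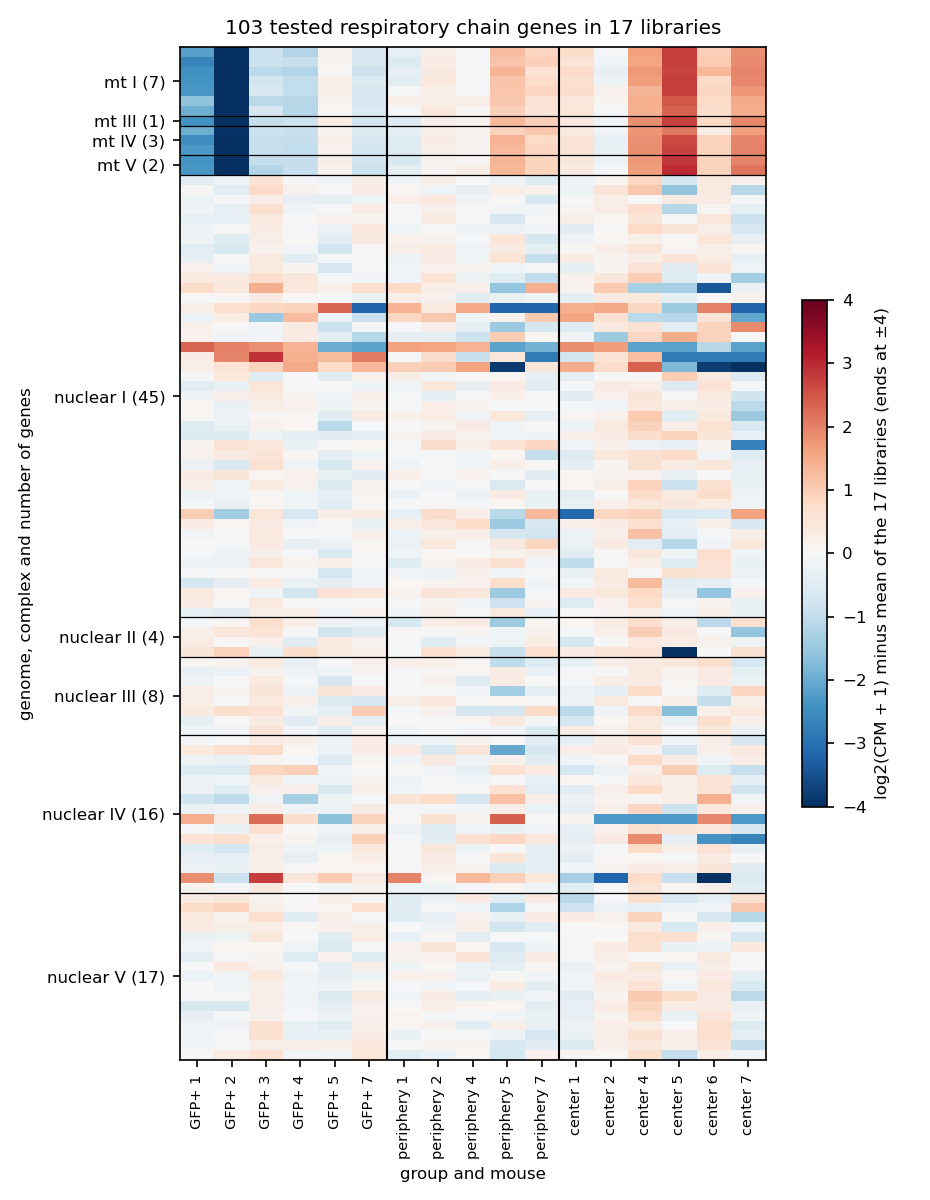
log2 of (CPM + 1) of each tested member minus its mean over the 17 libraries (colour, which ends at 4 on either side), with genes in rows by complex and origin and libraries in columns by group and mouse. The 13 mitochondrial rows vary together across columns and are lowest in GFP+-RPE of mouse 2 and highest in central GFP–-RPE of mouse 5, and the nuclear rows show no such block.

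The 90 nuclear members tested had a median change of −0.16 against central GFP–-RPE, with 26 higher and 64 lower, and 86 lay within 1 of 0. None was called by edgeR or DESeq2. At an unadjusted p under 0.05, 1 was higher and 2 were lower, against 2.14% and 3.66% of all genes tested. The summed nuclear levels differed by −0.13 in complex I, 0.06 in complex II, −0.10 in complex III, −0.05 in complex IV and −0.04 in complex V.

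Complex I had 45 nuclear members, 37 subunits and the assembly factors Ndufaf1 to Ndufaf8, with a median change of −0.16 against central GFP–-RPE. Ndufb4, an accessory subunit of the membrane arm, had the smallest p among nuclear members. It stood at 240, 236, 307, 265, 256 and 274 CPM in GFP+-RPE of mice 1, 2, 3, 4, 5 and 7. In peripheral GFP–-RPE it stood at 389, 439.7, 383, 311 and 304 CPM, and in central GFP–-RPE at 403, 430, 564, 658, 490 and 275 CPM in mice 1, 2, 4, 5, 6 and 7. The GFP+ pools lay in a narrow band that held 1 peripheral and 1 central pool, both of mouse 7. Against central GFP–-RPE its log2 change was −0.92 (SE 0.24, unadjusted p = 0.00134, edgeR adjusted p = 0.107, 0.0458 to 0.509 over the alternatives), and it was lower in 5 of 5 mice. Against peripheral GFP–-RPE it was −0.45 (SE 0.17, edgeR adjusted p = 0.733; DESeq2 adjusted p = 0.0459). Ndufa5, a subunit of the matrix arm, had a change of −0.53 against central GFP–-RPE (SE 0.23, edgeR adjusted p = 0.774). Among assembly factors, Ndufaf6 had a change of 2.44 (SE 1.46) from levels of at most 52.0 CPM, and Ndufaf3 one of −0.81, neither of which was called.

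Complex II, succinate dehydrogenase, has no mitochondrial subunit and none of its 4 genes was called. The changes against central GFP–-RPE were −0.18 for Sdha, the flavoprotein that binds succinate, −0.15 for Sdhb, the iron-sulfur subunit, −0.003 for the membrane anchor Sdhc and 0.28 for the anchor Sdhd. Against peripheral GFP–-RPE they were 0.33, 0.09, 0.22 and 0.25 in that order. Sdha, for example, had a median of 158 CPM in GFP+-RPE, 168 in peripheral GFP–-RPE and 190.4 in central GFP–-RPE, with overlapping ranges.

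Complex III had 8 nuclear members, with a median change of −0.20 against central and 0.06 against peripheral GFP–-RPE. Uqcrc1, a core subunit, ran from 169.6 to 274 CPM in GFP+-RPE and from 74.3 to 194 CPM in peripheral GFP–-RPE, with a log2 change of 0.59. Uqcr10, the nuclear gene of this complex with the highest level per kilobase, had medians of 444, 432 and 506 CPM in the 3 groups in turn.

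Complex IV has several nuclear subunits that exist as a common and a tissue-restricted form. Cox8b, the form typical of heart and skeletal muscle, stood at 219, 32.7, 410.2, 82.7, 126 and 76.0 CPM in GFP+-RPE of mice 1, 2, 3, 4, 5 and 7. Peripheral values were 241, 61.8, 152, 116 and 79.9 CPM, and central values 0.825 to 101 CPM with a median of 27.0. Most GFP+ and peripheral pools were above most central pools, although the groups overlapped. Its log2 change against central GFP–-RPE was 2.16 in GFP+-RPE (SE 0.80, unadjusted p = 0.0150, edgeR adjusted p = 0.512) and 1.90 in peripheral GFP–-RPE (SE 0.79, edgeR adjusted p = 1.00). Its common counterpart Cox8a, the nuclear complex IV gene with the highest level per kilobase, had medians of 1171, 1149 and 1276 CPM in the 3 groups in turn.

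Cox6b2, the form typical of testis, stood at 17.6 to 42.9 CPM in GFP+-RPE with a median of 32.5. Its values in peripheral pools of mice 1, 2, 4, 5 and 7 were 65.1, 76.0, 28.4, 104 and 54.3 CPM, and its central median was 49.5 CPM. Of the peripheral pools, only that of mouse 4 lay within the GFP+ range. The change was −1.07 against peripheral GFP–-RPE (SE 0.39, edgeR adjusted p = 0.708) and −0.97 against central GFP–-RPE (SE 0.50, edgeR adjusted p = 0.933). Of the other restricted forms, Cox7a1 was low, at 0 to 24.9 CPM, Cox4i2 passed 3 counts in 5 libraries and Cox7b2 in 2, and Cox6a2, Cox8c and Ndufa4l2, a relative of Ndufa4, never exceeded 1 count in any library. Those 5 genes were not tested.

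Complex V had 17 nuclear members, with a median change of −0.19 against central and 0.15 against peripheral GFP–-RPE. Atp5b, the catalytic beta subunit, stood at 1097, 1241, 771, 685, 691 and 1052 CPM in GFP+-RPE of mice 1, 2, 3, 4, 5 and 7. In peripheral GFP–-RPE it stood at 497, 626, 615, 278 and 621 CPM, and in central GFP–-RPE it ran from 371 to 1411 CPM with a median of 561. Every GFP+ pool was above every peripheral pool, with a log2 change of 0.84 (SE 0.24, unadjusted p = 0.00291, edgeR adjusted p = 0.555). The central pool of mouse 7 was the highest of all.

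**Figure D4:**
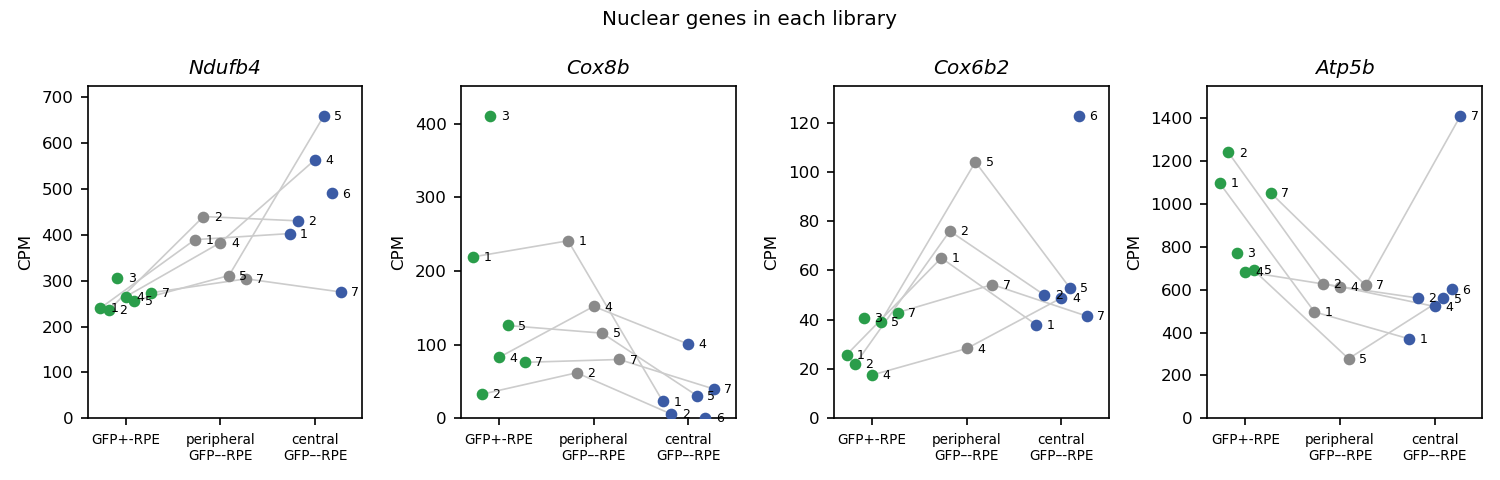
CPM of the nuclear members Ndufb4, Cox8b, Cox6b2 and Atp5b in each library (linear axis), by group, with points as pools numbered by mouse and grey lines joining pools of a mouse. Ndufb4 and Cox6b2 sit low in GFP+-RPE, Cox8b sits low in central GFP–-RPE, and the GFP+ pools of Atp5b all lie above the peripheral pools.

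Against peripheral GFP–-RPE, 10102 genes were tested and 0.0396% of them were called. The 13 mitochondrial genes all had lower estimates in GFP+-RPE, as did 49.2% of all genes, from −1.65 for mt-Nd3 to −1.37 for mt-Nd6, with a median of −1.50. None was called by edgeR or DESeq2, which called 0.255% of all genes lower; the edgeR adjusted p was 0.629 to 0.801, and 0.443 to 0.528 with the mouse as a block, which called 0%. All 13 were lower at an unadjusted p under 0.05, against 2.83% of all genes. mt-Nd5 was the 1 member that did not overlap in the lower direction, against 0.663% of all genes, and Atp5b the 1 in the higher direction, against 0.624%. The 90 nuclear members had a median of 0.09, with 57 higher and 33 lower and 88 within 1 of 0. At an unadjusted p under 0.05, 5 were higher (Atp5b, Atp5d, Atp5pb, Uqcrc1 and Ndufaf6) and 2 lower (Cox6b2 and Ndufb4), against 2.75% and 2.83% of all genes.

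Peripheral against central GFP–-RPE gave no called gene among 9535 tested (0%) by edgeR, and no called member by DESeq2, which called 18 genes higher and 11 lower (0.0979%). The 13 mitochondrial genes had changes of −1.24 to −0.84, 49.6% of all genes being below 0, with a median of −1.15 and edgeR adjusted p of 1.00. At an unadjusted p under 0.05, 12 of the 13 were lower and mt-Co1 was not, against 1.67% of all genes. The nuclear members had a median of −0.21, with 16 higher and 74 lower, of which 87 lay within 1 of 0. In complex V all 17 had lower estimates, with a median of −0.27. At an unadjusted p under 0.05, 1 nuclear member, Cox8b, was higher, against 1.03% of all genes. No member had ranges that did not overlap, against 0.64% and 0.115% of all genes.

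Between origins, levels were set side by side per kilobase, the length of a gene being all its annotated exon bases. For a gene with several transcripts this length can exceed that of any single one, which lowers its level per kilobase. Atp5md, Atp5pb and Cox5b-ps had no length and were left out, so 15 of the 17 nuclear members of complex V were ranked. As the mean over the 17 libraries, mt-Co3 reached 57786 CPM per kilobase, mt-Atp6 55917.5, mt-Cytb 29361 and mt-Nd1 14766. The highest nuclear member of each complex was at 872 for Ndufb11 in complex I, 147 for Sdhd in complex II, 742 for Uqcr10 in complex III, 1854 for Cox8a in complex IV and 792 for Atp5k in complex V, on the same scale.

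Other genes that moved with the mitochondrial ones were looked for in the transcript sequences. A run of at least 30 consecutive A or T, a length chosen after values were seen, was held by 131 genes outside the chain. None of the 105 members with an annotated transcript held one, the longest being 28 in Cox7a2 and 8 in a mitochondrial gene. For Atp5md, Atp5pb and Cox5b-ps no transcript was matched. The summed level of these 131 genes was 9708 to 43351 CPM in GFP+-RPE, 27570 to 83282 in peripheral GFP–-RPE and 26502 to 328371 in central GFP–-RPE, where the pool of mouse 5 was the highest. Against central GFP–-RPE, 73 of the 114 tested were lower in GFP+-RPE at an unadjusted p under 0.05 (64.0%), whereas 2.78% of genes with shorter runs were. Since the length was chosen on these same values and some of these genes moved together, this share describes the grouping and is not independent support. Ddx23 alone gave a large part of the sum, at 2730 to 169604 CPM over the 17 libraries. The level of mitochondrial genes per unit of these genes was 0.559 to 3.65 in GFP+-RPE, 3.29 to 5.45 in peripheral GFP–-RPE and 2.64 to 5.49 in central GFP–-RPE. Its log2 difference between GFP+ and central cells was −0.89 (pooled SD 0.76), against −2.79 for the mitochondrial sum itself. Between GFP+ and peripheral cells it was −0.89 (0.78), against −1.95. Between peripheral and central cells it was −0.007 (0.32), against −0.83. The part of these genes, or of priming on DNA, in the mitochondrial result was not tested.

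**Figure D5:**
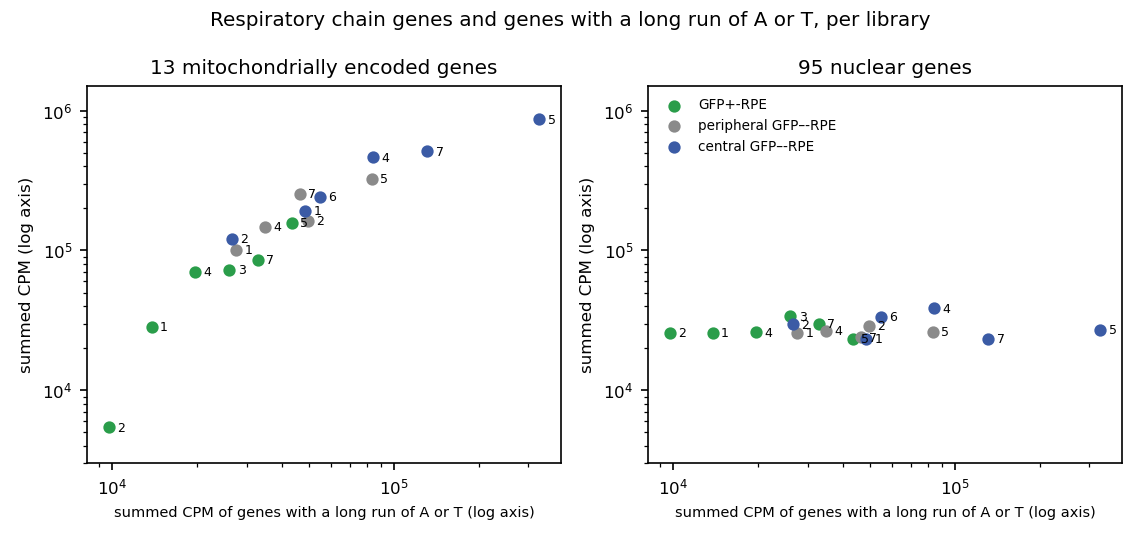
Summed CPM of the 131 genes with a run of at least 30 A or T (x, log axis) against summed CPM of the 13 mitochondrial genes (left, y, log axis) or the 95 nuclear genes (right), each point being 1 of the 17 libraries coloured by group and numbered by mouse. Both axes of the left panel are highest in central GFP–-RPE of mouse 5 and lowest in GFP+-RPE of mouse 2, and the nuclear sum stays between 23202 and 38488 CPM.

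Regulators and partners of the respiratory chain were read next. Of the 34 tested genes for maintenance, transcription and RNA stability of mitochondrial DNA, 17 had higher and 17 lower estimates against central GFP–-RPE. Their median was −0.11, and none was called, against 0.0431% of all genes. At an unadjusted p under 0.05, 0 were higher and 2 lower, against 2.14% and 3.66% of all genes. Those 2 were Angel2, at −1.73 (SE 0.51, edgeR adjusted p = 0.208), and Ssbp1, the single-strand binding protein of mitochondrial DNA, at −0.93 (SE 0.41). Tfam, which packages and transcribes that DNA, had a change of 1.21 (SE 1.34).

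Among 12 tested regulators of mitochondrial biogenesis, 3 had higher and 9 lower estimates, with a median of −0.76. Against 3.66% of all genes, 1 was lower at an unadjusted p under 0.05. This was Nrf1, nuclear respiratory factor 1, a transcription factor for many nuclear respiratory genes. It stood at 42.5 to 329 CPM in GFP+-RPE with a median of 150.2. Peripheral pools held 249, 429.9, 312, 782 and 365 CPM, and central pools 229 to 3818 CPM with a median of 686. Its change against central GFP–-RPE was −3.09 (SE 0.67, edgeR adjusted p = 0.0729). With the mouse as a block it was called, at an edgeR adjusted p of 0.000295, against 0.592% of all genes called lower. Its transcript holds a run of 28 A or T, its level moved with the genes of long runs, and their part in its change was not tested.

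Of 23 tested markers of mitochondrial content, 12 had higher and 11 lower estimates against central GFP–-RPE, with a median of 0.10. Tomm20, an import receptor of the outer membrane, had changes of −0.07 against central and 0.28 against peripheral GFP–-RPE. Of 18 tested electron carriers and genes of ubiquinone synthesis, 9 were higher and 9 lower, with a median of −0.01, and Cycs, cytochrome c, had a change of −0.03. Of 43 tested assembly factors outside the rule, 18 were higher and 25 lower, with a median of −0.21 and the lowest p for Cox17, a copper chaperone of complex IV, at −1.15 (SE 0.36, edgeR adjusted p = 0.286). Of 16 tested mitophagy genes, 10 were higher and 6 lower, with a median of 0.10. These 4 lists held 2 higher and 2 lower genes at an unadjusted p under 0.05, against 2.14% and 3.66% of all genes. None was called, against 0.0431% of all genes.

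Markers of other cell types were read in the same libraries, and their part in the results was not tested. The photoreceptor list, of which 5 of 26 genes could be tested, summed to 357 to 471 CPM in GFP+-RPE, 256 to 390.2 in peripheral and 427 to 508 in central GFP–-RPE. The macrophage list, of which 1 of 12 genes could be tested, summed to 38.1 to 111 CPM in GFP+-RPE, 105 to 146 in peripheral and 68.4 to 116 in central GFP–-RPE. The RPE list summed to 72693 to 86918 CPM in GFP+-RPE, 58788 to 92972 in peripheral and 50840 to 102583 in central GFP–-RPE. In the same order, the Mueller glia list summed to 12236 to 18692, 8345 to 18959 and 9188 to 17077 CPM. Of its 10 genes, 7 could be tested between GFP+ and peripheral cells and 2 never passed 3 counts. The sum is not split by gene here and is not a measure of Mueller cells. The list held 1 gene called between GFP+ and peripheral cells, against 0.0396% of all genes. Choroid stroma and fibroblasts summed to 155 to 539, 119 to 244 and 2.22 to 327 CPM. Endothelium summed to 7.97 to 27.0, 1.27 to 26.0 and 0.333 to 16.3 CPM, and melanocytes to 56.1 to 169, 54.4 to 163 and 64.2 to 241.

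The 250 bases before the start of the nuclear members were searched for 3 motifs known from respiratory genes, on both strands: GCGCANGCG (NRF1), CCGGAAGT (ETS family) and AAGATGGCG (YY1). RefSeq (GRCm38.p6) gave 81 promoters for 76 of the 95 nuclear members. The NRF1 letters were present in 16 of these promoters (19.8%) and in 5.16% of all 32851 promoters. The ETS letters were present in 3.70% and 2.88%, and the YY1 letters in 1.23% and 0.606%. Ndufb4 is shown because it had the smallest p among nuclear members and 3 matches to the NRF1 letters in its window, of which the stretch upstream of the annotated transcripts, chr16:37654454-37654618 on the minus strand, holds 1, in capitals.
Ndufb4: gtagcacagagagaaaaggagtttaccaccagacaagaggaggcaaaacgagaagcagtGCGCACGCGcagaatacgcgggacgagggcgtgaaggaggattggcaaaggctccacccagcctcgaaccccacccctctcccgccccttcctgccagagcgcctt
The promoter of Cox8b held none of the 3 motifs. A match is a stretch of letters and not a measured binding site.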

How the data were processed

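Libraries were made by the authors from hand-picked cells, and the labels name the SMART-Seq mRNA LP kit. The study's methods instead name the lysis buffer of a SMARTer Ultra Low Input RNA kit, and give a lower range of cells per pool than the labels. The submitters' processing notes name fastp, Salmon and GRCm38.p6. The deposited values were estimated counts per gene, already whole numbers, for 22253 genes in 17 libraries; all per-sample columns were used, and the strand setting is not given in the sources used here. There were no molecular identifiers, so limits on low counts cover counting error only.

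Counts were scaled to CPM with TMM factors computed over all 17 libraries. Each pair of groups was tested with edgeR 4.0.16 in R 4.3.3 (filterByExpr, TMM, quasi-likelihood test, Benjamini-Hochberg adjustment over all genes tested), with only those 2 groups in the fit. A gene was called at an adjusted p under 0.01 and a log2 change over 1 in size. The SE was the log2 change divided by the square root of F. DESeq2 1.42.0, other scalings, no filter, a run covariate, a robust fit, leaving out each pool and the mouse as a block were alternatives. Only the main edgeR fit was tried on simulated counts, which had less spread than these pools. The alternatives, including the mouse as a block, were not tried in this way. Summaries used Python 3.11.15.

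Replicates are mice as labelled. Same-numbered pools come from the same mouse, so the numbers pair the samples; over 15 pairs the correlation of their deviations from group means was −0.0195 to 0.0922, and 0 were over 0.1. Over 136 pairs of libraries the highest correlation was 0.924, and none was taken as a duplicate. Members, gene lists and the grouping by A or T runs were chosen with earlier results of these data known. Named genes were the 13 mitochondrial members, nuclear members with the largest changes, gene list members with the smallest p and the genes with the highest level per kilobase; nuclear members with an unadjusted p under 0.05, Nrf1, Ddx23, Olfr157 and the isoforms of complex IV were singled out after values were seen. Complexes were assigned by symbol, except that Ndufa4 and Ndufa4l2 stand under complex IV. Some items are not reported here. Exon lengths of genes, runs and overlaps came from GENCODE M21, which held 21853 of the 22253 symbols.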

Additional observations from a re-analysis of the deposited data

Results flagged for a closer look

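Over 33 measures in 3 groups, 7 of 99 groups held a pool far from its others by Dixon's criterion, where chance gives about 1 in 20. In central GFP–-RPE these were Atp5b in mouse 7 (1411 CPM, others 371 to 602), Cox5a in mouse 5 (71.3, others 135 to 156), Cox6b2 in mouse 6 (123, others 38.0 to 52.9) and Cox7a1 in mouse 6 (17.5, others 0 to 4.29). In peripheral GFP–-RPE it was Cox7a1 in mouse 5 (24.9 CPM, others 4.05 to 6.48). In GFP+-RPE they were Ndufa9 in mouse 3 (174 CPM, others 73.5 to 106) and Ndufaf1 in mouse 5 (43.6, others 0 to 16.2). All 7 were nuclear members. No mitochondrial gene and no sum was among them.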

How the results depend on the processing

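Of the values that answer a comparison, 200 held under the alternatives and 5 moved. A sum or ratio held when it shifted by less than the pooled SD between pools, which reached 1.43 on the log2 scale. A number of called members held when it stayed the same. Of the values for single genes 1287 held and 14 became significant. No member was called in the main fits, so no called member could reverse. The number of members called for GFP+ against central cells, 0, became 1 with DESeq2 and 13 in the fit with a replicate block for the mouse, which changed no other number of members called. Without TMM factors the difference of the nuclear sum became 0.42 (GFP+ against central), 0.24 (GFP+ against peripheral) and 0.18 (peripheral against central).

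Leaving out each pool gave 0 to 0 members called in all 3 comparisons. In the order just given, the mitochondrial sum ranged from −3.14 to −2.16, −2.30 to −1.33 and −1.12 to −0.55, the nuclear sum from −0.14 to 0.01, −0.01 to 0.10 and −0.19 to −0.05, and the ratio from −3.10 to −2.10, −2.40 to −1.40 and −0.995 to −0.40. The median change of the 13 mitochondrial genes against central cells was −2.37 without GFP+ mouse 2 and −2.18 without central mouse 5. Their adjusted p was 0.0129 to 0.0343 with no filter, 0.0335 to 0.0372 with all 3 groups in one fit and 0.214 to 0.322 with a robust fit. With the genes holding long A or T runs removed, an alternative chosen after seeing the data, it was 0.0803 to 0.113 and 0 were called. The causes were not tested. Pools of few cells and central libraries with few detected genes limit the precision of low nuclear genes. The central pools of mice 5, 7 and 4 had the fewest genes with at least 10 counts, 5392, 6430 and 6681. Their mitochondrial shares of all counts, 47.3%, 37.0% and 32.4%, were the highest of the 17 libraries. The part of gene detection in the mitochondrial result was not tested.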

Other observations

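Among the genes with a long A or T run, Ddx23, an RNA helicase of the spliceosome, stood at 2730 to 169604 CPM over the 17 libraries. Olfr157, an odorant receptor, stood at 388 to 24417 CPM. The ratio of Ddx23 to Olfr157 stayed between 6.74 and 7.61 in all 17 libraries. The mitochondrial sum per unit of Ddx23 was 1.99 to 9.04 in GFP+-RPE, 7.09 to 12.0 in peripheral and 5.10 to 11.2 in central GFP–-RPE.

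Of the 1503 symbols of odorant, vomeronasal and trace amine receptors, 16 held a long run. The genes with a long run took 1.27% to 4.71% of all counts in GFP+-RPE, 3.41% to 7.82% in peripheral and 3.02% to 18.0% in central GFP–-RPE, where the highest share was that of mouse 5. Nrf1 per 1000 CPM of mitochondrial genes was 1.45 to 7.84 over the 17 libraries, with a median of 2.40.

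Between GFP+ and peripheral cells, 37.9% of the tested genes with a long run were lower at an unadjusted p under 0.05, against 2.30% of genes with shorter runs. Between peripheral and central cells these shares were 36.2% and 1.12%. The run length was chosen on the same values, so these shares are descriptive only.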
